A study of Mus musculus with 16 samples.

Results

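Levels of 10 genes of macrophages and monocytes, among the 56953 genes of the count table, were followed in left ventricles of 16 mice. The genes were chosen by name, with earlier results of these data known. They were 3 of macrophage identity (Adgre1, Csf1r, Cd68), 3 scavenger receptors (Cd163, Lyve1, Mrc1), the 3 chains of complement C1q (C1qa, C1qb, C1qc) and the monocyte receptor Ccr2. All 10 passed the filter on low counts. The mice, of the Bl6J background and of both sexes, either were wild type (WT) or carried, on both alleles, the P635L missense mutation of RBM20, a splicing factor of heart and skeletal muscle (homozygous mice). Each had been given AAV9 by tail vein (1e12 viral genomes) when 4 weeks old, and RNA of the left ventricle was taken 12 weeks later, at an age of 16 weeks. The virus carried the Tnpo3 cDNA, which codes for a nuclear import receptor, or the control construct pCAG-iCre-T2A-eGFP (Ctr). The 4 groups of 4 mice are named by genotype and virus: WT Ctr and WT Tnpo3, then P635L Ctr and P635L Tnpo3. Every mouse had received a virus, Cre and green fluorescent protein came with the control virus, the promoter of the Tnpo3 cDNA is not given in the sources used here, and the sex of each mouse is not in the labels.

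Macrophages live between the muscle cells of the healthy heart, where they take up debris and spent cell material. Most resident ones descend from embryonic precursors, need signals through the CSF1 receptor to survive, and carry scavenger receptors such as LYVE1 and CD163, while cells that arrive later from blood monocytes carry the chemokine receptor CCR2 and often more MHC class II. Tissue macrophages are a main source of C1q, the recognition part of the classical complement pathway, which is assembled from equal numbers of A, B and C chains. In whole tissue, fewer macrophages and less RNA per macrophage cannot be told apart.

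The smallest library, WT Ctr replicate 1, held 28493249 counts and the largest, P635L Ctr replicate 2, held 85922669. The tissue was cardiac: the summed CPM (counts scaled to the library total) of 6 cardiomyocyte markers were between 49496 and 81645. Tnpo3 lay between 41.6 and 49.4 CPM in the 8 hearts with the control virus and between 231 and 723 CPM in the 8 with the Tnpo3 virus. ENSMUSG00000119584 took 19.96 to 22.65% of the counts in WT Ctr replicates 2 and 4 and WT Tnpo3 replicate 4. Of the 8 P635L libraries 0 had more Xist than Y-linked counts, and of the WT libraries 3 had: replicate 4 of WT Ctr and replicates 2 and 4 of WT Tnpo3.

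Positions are in GRCm39. The C1q genes sit side by side on the minus strand of chromosome 4, in the order C1qb, C1qc, C1qa, within 18675 bases (chr4:136607440-136626114). Adgre1 (ENSMUSG00000004730) is at chr17:57665691-57790527 and Cd68 (ENSMUSG00000018774) at chr11:69555039-69556979. Of the scavenger receptors, Cd163 (ENSMUSG00000008845) is at chr6:124281615-124307486, Lyve1 (ENSMUSG00000030787) at chr7:110449814-110462446 and Mrc1 (ENSMUSG00000026712) at chr2:14234203-14336868. Ccr2 (ENSMUSG00000049103) is at chr9:123901987-123913594. Csf1r (ENSMUSG00000024621) was the only one of the 10 with exons that overlap those of another gene, Hmgxb3 on the opposite strand, which was at 20 to 29.8 CPM in these libraries. The kit was directional, but the sources used here do not say if strand was counted, so the level of Csf1r is uncertain to that extent.

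Promoters of 3 genes are shown because the genes moved together across the hearts: those of C1qb and C1qc, neighbours in the cluster, and of Cd68, on another chromosome. The sequences are from RefSeq (GRCm38.p6), whose table held 6 of the 10 genes, and each is the 250 bases before the transcription start, read along the gene, all on the minus strand, 5′ to 3′. Capitals mark GAGGAA or its reverse complement TTCCTC, a core that ETS factors such as the macrophage regulator PU.1 can bind.
C1qb (chr4:136886201-136886450): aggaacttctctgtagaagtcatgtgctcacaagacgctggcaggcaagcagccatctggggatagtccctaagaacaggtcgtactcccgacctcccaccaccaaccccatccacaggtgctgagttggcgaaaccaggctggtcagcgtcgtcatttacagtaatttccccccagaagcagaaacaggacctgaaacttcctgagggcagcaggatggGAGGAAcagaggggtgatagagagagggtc
C1qc (chr4:136892915-136893164): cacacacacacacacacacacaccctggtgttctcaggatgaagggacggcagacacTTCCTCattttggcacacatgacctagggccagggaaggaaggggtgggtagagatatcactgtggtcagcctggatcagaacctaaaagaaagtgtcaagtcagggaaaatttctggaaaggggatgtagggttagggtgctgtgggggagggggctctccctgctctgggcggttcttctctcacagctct
Cd68 (chr11:69666171-69666420): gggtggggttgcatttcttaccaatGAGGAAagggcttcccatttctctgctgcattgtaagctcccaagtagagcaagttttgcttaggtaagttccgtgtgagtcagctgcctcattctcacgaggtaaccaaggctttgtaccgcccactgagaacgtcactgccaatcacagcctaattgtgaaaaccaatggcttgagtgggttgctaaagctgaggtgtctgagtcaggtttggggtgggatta
The 6 letters, on either strand, began 30 bases before the start in C1qb, 193 before in C1qc and 225 before in Cd68. They were found in 4 of the 6 promoters (3 times in Mrc1) and in 23.3% of 32851 mouse promoters of the same length. The C/EBP letters TTGCNNAA, found in 9.56% of all promoters, occurred in 1 of the 6, and the AP-1 letters TGANTCA, found in 6.75%, in 1 of the 6, both times Cd68. A match is a description of letters only.

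One library stood apart from the rest. WT Ctr replicate 1 was the highest of all 16 libraries in 8 of the 10 genes. Against the mean of the other WT Ctr hearts, its level was 9.69 times as high for Ccr2, 4.44 for Adgre1, 3.09 for C1qb, 2.72 for C1qa, 2.55 for Cd68, 2.54 for C1qc, 1.93 for Csf1r and 1.56 for Mrc1. The exceptions were Cd163, at 1.07 times that mean, and Lyve1, at 0.811 times. All 7 of 7 T cell markers could be tested, and their summed level in this library was 94.1 CPM, against 1.94 to 7.19 CPM in the other 15. The summed level of 4 MHC class II genes was 2832 CPM, against 161 to 778 CPM elsewhere. The 5 neutrophil markers, of which 3 passed the filter, summed to 7.63 CPM, within the 1.79 to 7.86 CPM of the others. The 6 B cell markers summed to 6.69 CPM, also within the range of the other libraries, 3.3 to 11.6 CPM. The part of these other cells in the levels of the 10 genes was not tested, and the edgeR comparisons of the 10 genes with WT Ctr are given with and without this library. The DESeq2 and splicing results were taken with all libraries only.

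**Figure D1:**
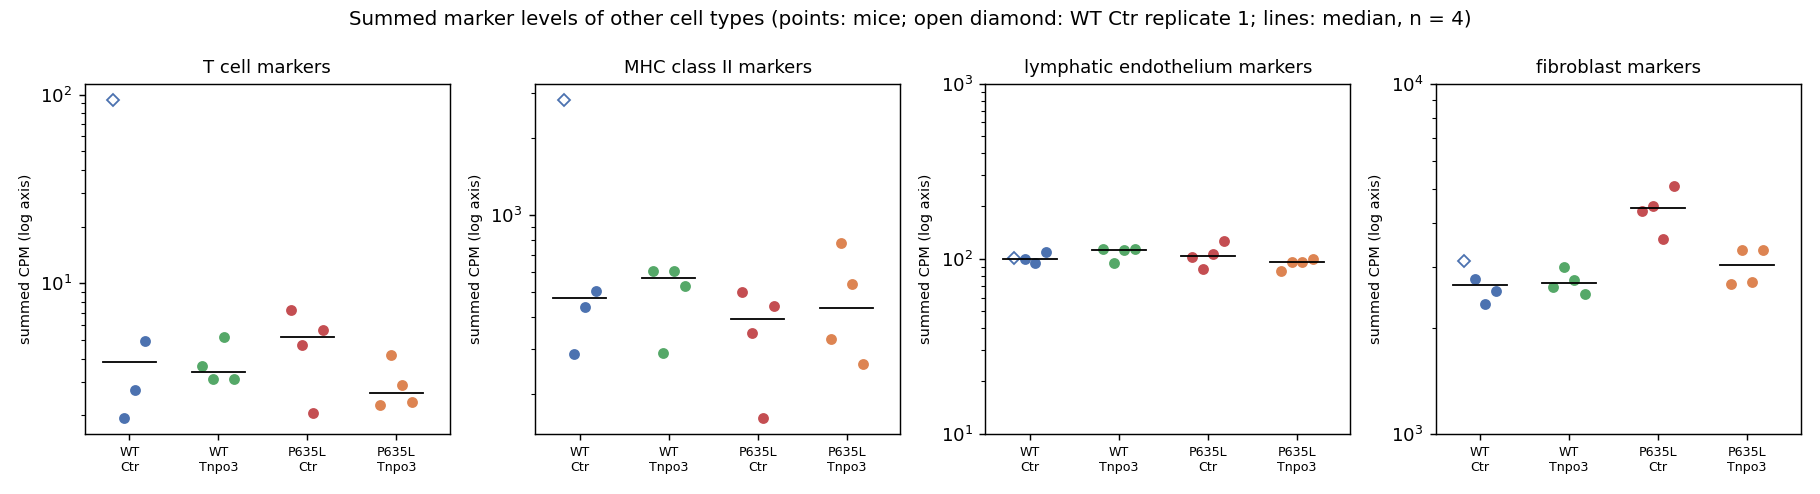
Summed CPM (log axis) of marker genes of T cells (7), MHC class II (4), lymphatic endothelium (6) and fibroblasts (6) in each of the 16 hearts, by group. Points are mice, the open diamond is WT Ctr replicate 1 and lines are medians. WT Ctr replicate 1 lies at 94.1 for T cell markers and 2832 for MHC class II, above all other hearts, and the 4 P635L Ctr hearts have the highest fibroblast sums, 3595 to 5106.

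Levels were first compared between genes, as CPM per kilobase of the authors' gene length. C1qa, C1qb and C1qc led in every group and Ccr2 came last. In P635L Ctr, C1qa was at 72 ± 10.4 CPM per kilobase (SD, n = 4), C1qb at 45.4 ± 9.61 and C1qc at 23.2 ± 4.53, and the libraries of these neighbours in the order did not overlap. Csf1r, at 7.47 ± 0.953, and Cd68, at 6.46 ± 0.844, followed and overlapped each other. Mrc1, Adgre1 and Lyve1 came next, at 3.50 ± 0.337, 2.84 ± 0.761 and 2.55 ± 0.704, each overlapping the next. Cd163 was at 1.49 ± 0.291 and Ccr2 at 0.468 ± 0.189. The rank of Lyve1 by group mean differed between groups: it was the sixth in both WT groups, at 5.21 ± 1.61 in WT Ctr and 6.27 ± 1.68 in WT Tnpo3, the eighth in P635L Ctr and the seventh in P635L Tnpo3, at 4.43 ± 0.819. In both P635L groups its libraries overlapped those of Adgre1. They also overlapped those of the next gene in WT Ctr (Adgre1) and in WT Tnpo3 (Mrc1). Without WT Ctr replicate 1, those of Lyve1 and the next gene, Mrc1, did not overlap in WT Ctr.

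The C1q chains kept nearly fixed proportions to each other. Per length, C1qa was 1.56 ± 0.146 times C1qb over the 16 libraries (SD), with a range from 1.33 to 1.90, and C1qc was 0.487 ± 0.0429 times C1qb, ranging from 0.423 to 0.564. WT Ctr replicate 1 lay inside the first range and gave the lowest value of the second. Across the 16 libraries the pairwise correlations of the chains were between 0.98 and 0.99, and between 0.96 and 0.98 over the 15 without WT Ctr replicate 1. These correlations of log2 levels describe libraries that share groups and depth. C1q followed Csf1r less tightly, with correlations of 0.90 to 0.93 (0.83 to 0.89 over 15). Lyve1 kept apart: its correlations with the other 9 genes ran from -0.08 to 0.68, and from -0.16 to 0.68 over 15.

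The ratio to Csf1r separated the mutant groups for C1qa and C1qb, and for none of the other genes. C1qa per Csf1r, per length, was 9.35 to 9.98 in the 4 P635L Ctr hearts and 11.7 to 12.3 in the 4 P635L Tnpo3 hearts, which did not overlap, while the WT Ctr hearts spanned 10.2 to 17.4 and the WT Tnpo3 hearts 10.6 to 13.8. C1qb per Csf1r was 4.92 to 6.57 in P635L Ctr and 7.23 to 8.69 in P635L Tnpo3. C1qc per Csf1r, at 2.77 to 3.53 and 3.49 to 3.97, overlapped between these groups. Mrc1 per Csf1r was 0.432 to 0.509 in P635L Ctr and 0.373 to 0.518 in P635L Tnpo3, with overlap. Cd68 per Csf1r overlapped too, at 0.747 to 0.941 and 0.897 to 1.27, as did Cd163, Adgre1, Ccr2 and Lyve1 per Csf1r. Lyve1 per Csf1r was 0.348 ± 0.117 in P635L Ctr, 0.444 ± 0.0647 in P635L Tnpo3, 0.619 ± 0.277 in WT Ctr and 0.766 ± 0.278 in WT Tnpo3 (SD, n = 4). The WT Ctr hearts spanned 0.306 to 0.957, or 0.515 to 0.957 without replicate 1, and the P635L Ctr hearts 0.214 to 0.491. No test was made of these ratios, which share the Csf1r counts and their uncertainty. The share of all genes with such a separation was not computed.

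**Figure D2:**
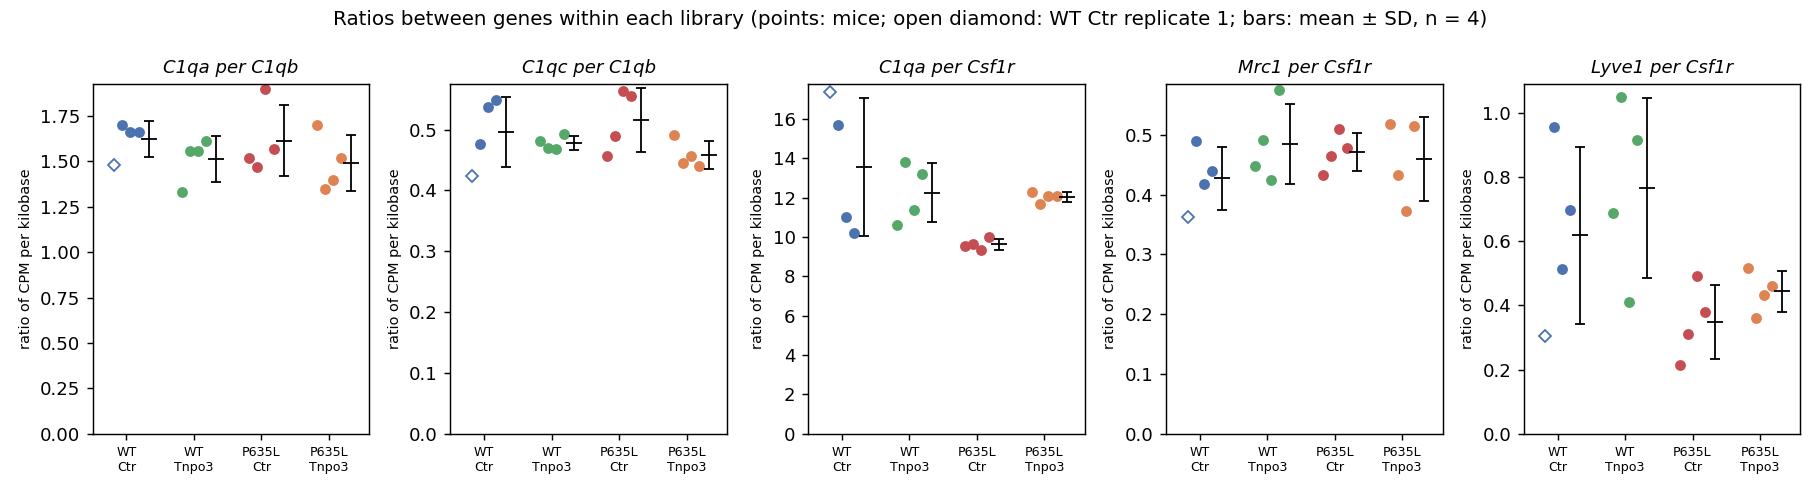
Ratios of CPM per kilobase between genes within each heart, by group: C1qa and C1qc to C1qb, then C1qa, Mrc1 and Lyve1 to Csf1r. Points are mice, the open diamond is WT Ctr replicate 1 and bars are mean ± SD (n = 4). C1qa per Csf1r is 9.35 to 9.98 in P635L Ctr and 11.7 to 12.3 in P635L Tnpo3, while Mrc1 per Csf1r overlaps between those groups.

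The levels of the 10 genes, below in CPM with TMM scaling, were then followed by role. Adgre1 codes for the macrophage surface protein F4/80. It was at 31.7, 7.71, 6.19 and 7.48 CPM in WT Ctr and at 12.9, 7.64, 12.8 and 9.98 CPM in WT Tnpo3. In P635L Ctr it was at 10.5, 7.02, 7.28 and 12.0 CPM, and in P635L Tnpo3 at 8.81, 15.7, 19.2 and 9.36 CPM. All groups overlapped, and 1 WT Ctr heart lay above the other 15.

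Csf1r, the receptor for the macrophage growth factors CSF1 and IL-34, was at 83.9, 45.5, 43.5 and 41.4 CPM in WT Ctr and 52.5, 44.5, 56.3 and 42.5 CPM in WT Tnpo3. P635L Ctr hearts had 48.4, 39.2, 37.6 and 47.2 CPM and P635L Tnpo3 hearts 46.3, 61.2, 75.1 and 51.0 CPM. These groups overlapped as well, and the 2 highest P635L Tnpo3 hearts exceeded every heart but WT Ctr replicate 1.

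Cd68 codes for a glycoprotein of macrophage lysosomes. Its levels were 27.6, 13.6, 9.07 and 9.79 CPM in WT Ctr and 15.3, 12.9, 15 and 13 CPM in WT Tnpo3. The P635L Ctr hearts, at 7.88, 7.40, 7.53 and 9.68 CPM, all lay below the P635L Tnpo3 hearts, at 12.8, 16.0, 19.7 and 9.96 CPM. P635L Ctr and WT Ctr overlapped through 1 heart of each, at 9.68 and 9.07 CPM.

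Lyve1, a hyaluronan receptor of resident macrophages that is also made by lymphatic vessels, was at 13, 22.0, 11.3 and 14.6 CPM in WT Ctr and at 18.3, 23.5, 11.7 and 19.7 CPM in WT Tnpo3. P635L Ctr hearts had 5.23, 6.15, 9.33 and 9.04 CPM, and P635L Tnpo3 hearts 12.1, 11.2, 16.5 and 11.9 CPM. All 4 P635L Ctr hearts were below all 12 others. The share of all genes with that order of hearts was not computed. The summed level of 6 markers of lymphatic endothelium, none at 0, was 94.5 to 109 CPM in WT Ctr, 95.1 to 113 CPM in WT Tnpo3, 87.8 to 127 CPM in P635L Ctr and 84.6 to 99.0 CPM in P635L Tnpo3. Single markers differed in direction: between WT Ctr and P635L Ctr, the mean level of Prox1 went from 28.8 ± 5.01 to 22.2 ± 4.42 CPM and that of Mmrn1 from 4.22 ± 0.718 to 6.38 ± 1.10 CPM (SD, n = 4). The part of lymphatic vessels in the level of Lyve1 was not tested.

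Cd163, which clears haemoglobin bound to haptoglobin, was at 13.2, 12.2, 11.6 and 13 CPM in WT Ctr and 13, 10.5, 11.6 and 20.3 CPM in WT Tnpo3. It was at 9.45, 6.23, 7.44 and 9.46 CPM in P635L Ctr and 12.0, 10.5, 17.3 and 9.82 CPM in P635L Tnpo3. As with Lyve1, the 4 P635L Ctr hearts were the lowest of the 16, an order whose share over all genes was not computed.

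Mrc1, the mannose receptor, was at 33.6, 24.5, 20.1 and 20.1 CPM in WT Ctr and 26.0, 24.1, 26.4 and 27.0 CPM in WT Tnpo3. It was at 23.1, 20.1, 21.1 and 24.9 CPM in P635L Ctr and at 26.5, 29.2, 30.9 and 29.0 CPM in P635L Tnpo3. The mutant groups did not overlap each other, and P635L Ctr lay within the range of WT Ctr.

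C1qa was at 263, 128, 86.3 and 76.2 CPM in WT Ctr and at 100, 110, 116 and 101 CPM in WT Tnpo3. In P635L Ctr it was at 83.2, 68.2, 63.4 and 84.9 CPM, and in P635L Tnpo3 at 102, 129, 164 and 111 CPM. The mutant groups did not overlap, and 2 of the 4 P635L Ctr hearts were below the lowest WT Ctr heart. C1qb showed the same separation of the mutant groups, with 34.9 to 57.3 CPM in P635L Ctr and 63.0 to 123 CPM in P635L Tnpo3, while for C1qc the ranges of 34.9 to 55.8 and 54.9 to 99.7 CPM overlapped by 1 heart of each.

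Ccr2 was the scarcest. It was at 21.8, 1.28, 2.25 and 3.22 CPM in WT Ctr (602, 31, 82 and 111 counts) and at 4.34, 1.97, 5.84 and 5.05 CPM in WT Tnpo3. P635L Ctr hearts had 4.52, 3.00, 1.48 and 3.65 CPM and P635L Tnpo3 hearts 3.39, 4.54, 5.35 and 2.89 CPM. Apart from WT Ctr replicate 1, all hearts fell in one range.

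**Figure D3:**
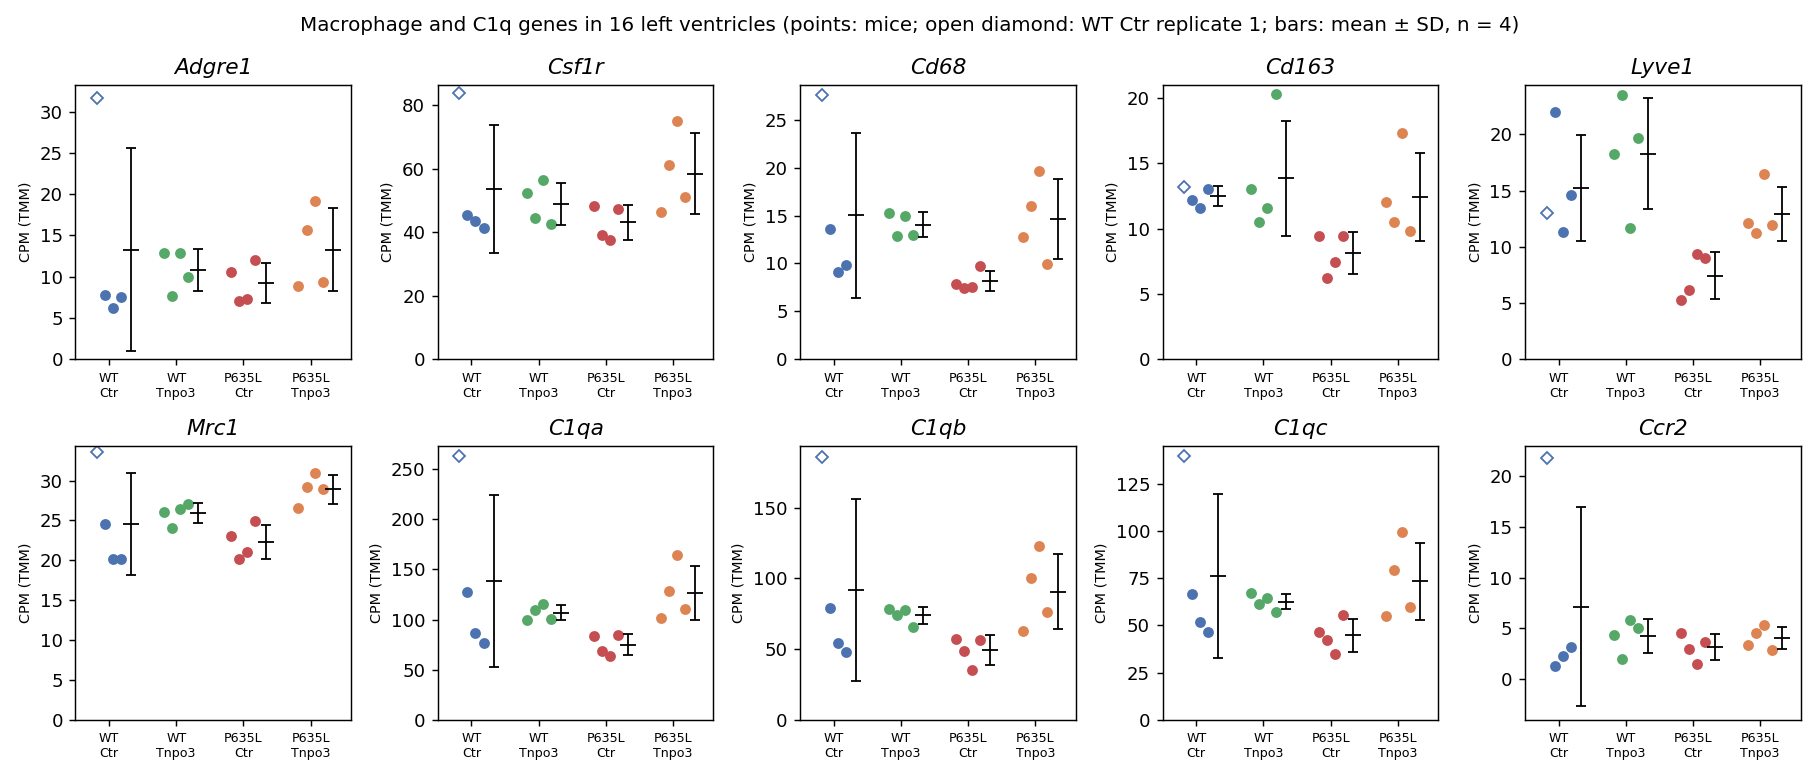
Level of each of the 10 genes in the 16 hearts, as CPM with TMM scaling, by group. Points are mice, the open diamond is WT Ctr replicate 1 and bars are mean ± SD (n = 4). That library is the highest in 8 panels, and in the panels of Lyve1 and Cd163 the 4 P635L Ctr hearts are the lowest. The share of all genes with P635L Ctr lowest in this way was not computed.

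The first comparison asked what the mutation did under the control virus. All 10 genes were lower in P635L Ctr than in WT Ctr, and 2 passed the test. Lyve1 fell by 1.03 on the log2 scale (SE 0.24, edgeR adjusted p = 0.00753), from 15.2 ± 4.71 to 7.44 ± 2.06 CPM (SD, n = 4). Cd68 fell by 0.88 (SE 0.29, edgeR adjusted p = 0.0476), from 15 ± 8.64 to 8.12 ± 1.06 CPM. Of all 18662 genes tested, 14.2% were called in this comparison and 7.14% were called lower. Markers of other cell types went both ways. In P635L Ctr the 4 mast cell markers summed to 0.502 to 1.94 CPM, against 1.94 to 4.52 CPM in WT Ctr. The 5 mesothelial markers, with Lrrn4 at 0, summed to 4.56 to 5.74 CPM, against 6.66 to 8.99 CPM. Fibroblast markers were higher, at 3595 to 5106 CPM against 2354 to 3118 CPM. B cell markers, at 5.29 to 11.6 CPM, overlapped the 3.3 to 7.32 CPM of WT Ctr. Their part in the difference was not tested. When WT Ctr replicate 1 was left out, the 10 genes no longer pointed one way: 7 were lower and 3 were higher, and their median log2 fold change went from -0.82 to -0.29, beside -0.05 and -0.03 over all genes.

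Lyve1 did not turn on that library. Without it the log2 fold change was -1.10 (SE 0.26, edgeR adjusted p = 0.00831), the only call among the 10 genes, against 13.1% of all genes. Lyve1 was called in 26 of 27 alternative fits, with an adjusted p between 0.000546 and 0.116. The exception left out WT Ctr replicates 2 and 4 and WT Tnpo3 replicate 4, the libraries rich in ENSMUSG00000119584, where the log2 fold change was -0.67 and 2 WT Ctr hearts remained. Without the 3 libraries whose Xist exceeded their Y-linked counts it was -1.01 (adjusted p = 0.0166).

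Cd68 had a borderline call. Its log2 fold change was -0.41 without WT Ctr replicate 1 (edgeR adjusted p = 0.189). The call held in 12 of 27 alternatives, with adjusted p between 0.0155 and 0.189, and among the 16 fits that left out 1 library it held in 4: those without WT Ctr replicate 3 or 4 or without P635L Tnpo3 replicate 3 or 4.

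Cd163 fell just short of the threshold, at -0.62 on the log2 scale (SE 0.21, edgeR adjusted p = 0.0530) and means of 12.5 ± 0.718 CPM for WT Ctr and 8.14 ± 1.59 CPM for P635L Ctr (SD, n = 4). Cd163 and Lyve1 were the 2 genes of the 10 with no overlap between the groups, as were 9.43% of all genes tested in the lower direction. Cd163 stayed at -0.59 without WT Ctr replicate 1 (adjusted p = 0.0941).

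For C1q the size of the difference depended on the single library. C1qa was lower, at -0.89 on the log2 scale (SE 0.29, edgeR adjusted p = 0.0539), with all libraries and -0.37 (SE 0.18, adjusted p = 0.195) without it. C1qb went from -0.89 (adjusted p = 0.102) to -0.29 (adjusted p = 0.428), and C1qc from -0.77 (adjusted p = 0.0854) to -0.29 (adjusted p = 0.349). Csf1r went from -0.31 to -0.01. Adgre1, Mrc1 and Ccr2 changed sign, from -0.52 to 0.37, from -0.14 to 0.05 and from -1.17 to 0.48, none of them called. With DESeq2 in place of edgeR, 5 of the 10 genes were called lower with all libraries, Lyve1, Cd68, C1qa, C1qc and Cd163, beside 7.76% of all genes.

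The second comparison asked what the Tnpo3 virus did in mutant hearts, between P635L Tnpo3 and P635L Ctr. All 10 genes had positive log2 fold changes, with a median of 0.66 beside 0.01 over all genes. edgeR called 0 of the 10 and DESeq2 called 2, Cd68 and Lyve1. At an unadjusted p under 0.05 edgeR had 8, which are not calls, and the share of all genes at that level is not given. Of all genes, edgeR called 3.88% in either direction and 1.63% higher, and DESeq2 called 3.57% higher. In 6 genes, Cd68, Cd163, Lyve1, Mrc1, C1qa and C1qb, every P635L Tnpo3 heart was above every P635L Ctr heart, as it was for 9.36% of all genes tested.

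C1qb had the largest of these log2 fold changes, 0.88 (SE 0.35, edgeR adjusted p = 0.187), from 49.3 ± 10.5 to 90.6 ± 26.5 CPM (SD, n = 4). Cd68 followed with 0.85 (SE 0.28, adjusted p = 0.111), from 8.12 ± 1.06 to 14.6 ± 4.20 CPM. Lyve1 was at 0.80 (SE 0.24, adjusted p = 0.0722), C1qa at 0.76 (adjusted p = 0.173), C1qc at 0.71 (adjusted p = 0.188) and Cd163 at 0.61 (adjusted p = 0.110). Adgre1 was at 0.53, Csf1r at 0.44, Mrc1 at 0.37 and Ccr2 at 0.36. The last of these had an SE of 0.70.

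WT Ctr replicate 1 is in neither of these groups, yet it bore on the test, since the 4 groups share 1 estimate of the spread. Without it the log2 fold changes differed by at most 0.01 and 5 genes were called higher: Cd68 (edgeR adjusted p = 0.0130), C1qa (0.0155), C1qb (0.0207), C1qc (0.0294) and Mrc1 (0.0477). Of all genes, 1.94% were then called higher. When only the 8 mutant libraries were fitted, 6 genes were called higher: Cd68, Lyve1, Mrc1, C1qa, C1qb and C1qc. That fit called 6.98% of all genes higher. Beside these genes, the fibroblast markers moved the other way, with a summed level of 3595 to 5106 CPM in P635L Ctr and 2684 to 3359 CPM in P635L Tnpo3, against 2354 to 3118 CPM in WT Ctr. The cardiomyocyte markers summed to 49496 to 53608 CPM in P635L Ctr and 51489 to 61341 CPM in P635L Tnpo3, against 68422 to 81645 CPM in WT Ctr. The part of such shifts in tissue make-up was not tested.

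In wild-type hearts the Tnpo3 virus changed none of the 10 genes by this test. edgeR called 0, with 0 at an unadjusted p under 0.05, and DESeq2 called 0. Of all genes, edgeR called 0.00536%, which was Tnpo3 alone, and DESeq2 0.00813%. The log2 fold changes between WT Tnpo3 and WT Ctr were negative in 7 genes and positive in 3, with a median of -0.21 beside -0.02 over all genes. All 10 were positive without WT Ctr replicate 1, with a median of 0.24 and 3 at an unadjusted p under 0.05: Adgre1 at 0.61, Mrc1 at 0.27 and Ccr2 at 0.92. Their edgeR adjusted p was 0.999 in each case.

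**Figure D4:**
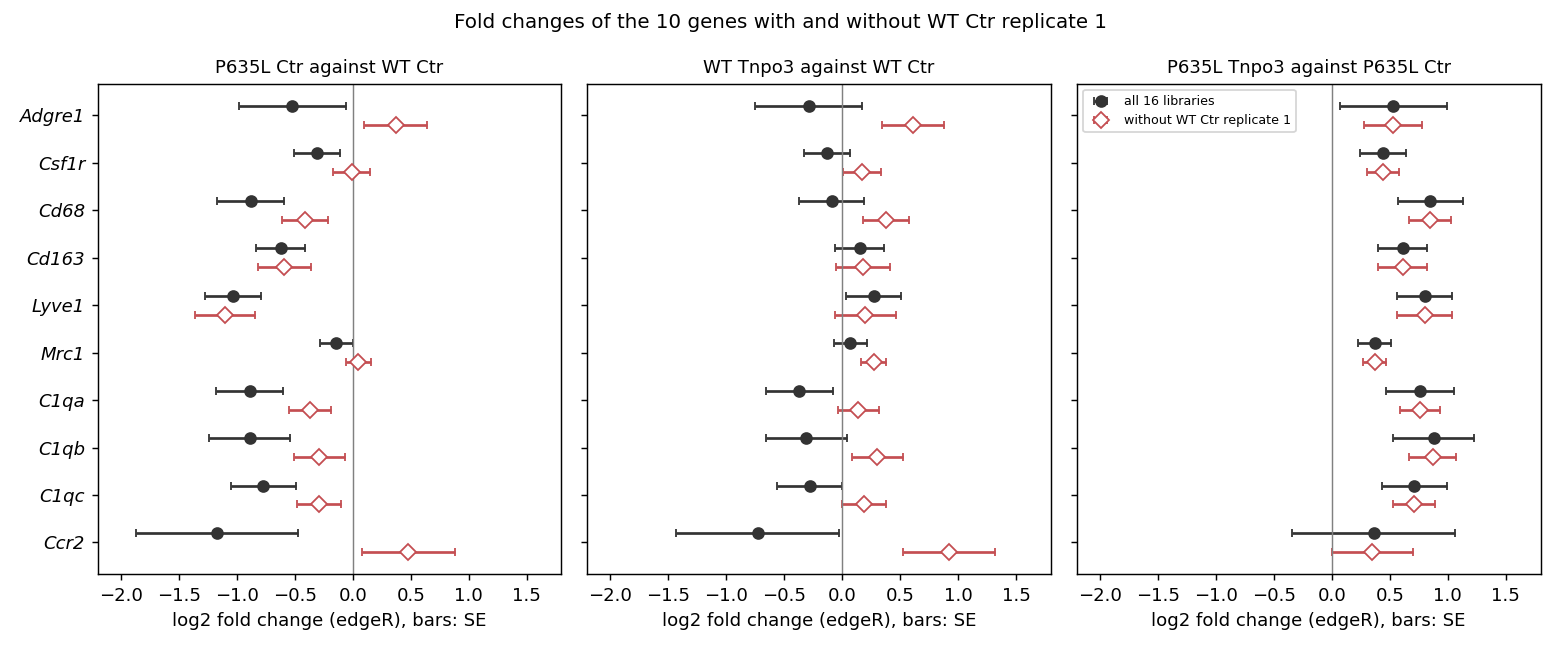
Log2 fold changes (x axis) of the 10 genes in 3 comparisons, with bars for the SE: black circles for all 16 libraries and open diamonds for the fit without WT Ctr replicate 1. The values between the mutant groups differ by at most 0.01 between the fits while their SE narrows for C1qa from 0.29 to 0.17, and in both comparisons with WT Ctr the diamonds lie to the right of the circles for every gene but Lyve1.

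Whether the effect of the virus differed between genotypes was tested by the interaction. edgeR called 0 of the 10 genes, with 4 at an unadjusted p under 0.05 (Cd68, C1qa, C1qb and C1qc), DESeq2 called 0, and of all genes edgeR called 0.504% and DESeq2 2.45%. All 10 interaction values were positive, with a median of 0.88 beside 0.04 over all genes. C1qb had 1.19 (SE 0.49, edgeR adjusted p = 0.340) and C1qa 1.13 (SE 0.41, adjusted p = 0.270). The median was 0.45 without WT Ctr replicate 1 and 8 of 10 were positive, with C1qa at 0.61 the only one at an unadjusted p under 0.05 (edgeR adjusted p = 0.336). A difference in the effect of the virus between genotypes was therefore not shown for any of the 10 genes.

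The treated mutant hearts were also set against both wild-type groups. Against WT Ctr, edgeR called 0 of the 10 genes, with 0 at an unadjusted p under 0.05, and DESeq2 called 0, beside 3.07% of all genes with edgeR and 5.45% with DESeq2, and the median log2 fold change was -0.03. Leaving out WT Ctr replicate 1, the median was 0.42, 9 of 10 were positive and 7 had an unadjusted p under 0.05. Mrc1 alone was then called, at 0.42 (SE 0.11, edgeR adjusted p = 0.0436), beside 3.58% of all genes. Adgre1, Csf1r and Mrc1 had no overlap with the other WT Ctr hearts, as had 7.98% of all genes in that direction. Lyve1 alone stayed negative, at -0.30 (edgeR adjusted p = 0.569). Against WT Tnpo3, edgeR called 0 of the 10 and DESeq2 0, beside 3.72% and 8.52% of all genes. Lyve1, at -0.50, was the only one of the 10 with an unadjusted p under 0.05 (edgeR adjusted p = 0.244).

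By group means, P635L Ctr was the lowest of the 4 groups in all 10 genes with all libraries and in 7 without WT Ctr replicate 1, where WT Ctr was the lowest for Adgre1, Mrc1 and Ccr2. P635L Tnpo3 had the highest mean in 3 genes with all libraries and in 7 without that library. The 2 comparisons that involve P635L Ctr share its 4 libraries, so their values are given side by side and not as separate evidence.

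The authors' deposited tables of DESeq2 results, which compare 3 groups with WT Ctr, held all 10 genes. For P635L Ctr, the authors' deposited table called Lyve1 (log2 fold change -1.02, adjusted p = 0.000687), Cd163 (-0.61, adjusted p = 0.00409) and Cd68 (-0.87, adjusted p = 0.0328), after turning its sign so that WT Ctr is the reference. It called 3378 genes in all. C1qa (adjusted p = 0.16) and C1qc (adjusted p = 0.0673) were not called there, though the DESeq2 fit above called both. In the authors' deposited tables for P635L Tnpo3 and for WT Tnpo3 none of the 9 genes with an adjusted p was called. Those 2 tables called 1198 and 3 genes in all. The authors' deposited tables list no p-value for Ccr2 in any of the 3 comparisons.

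Other genes of the same biology were taken from 6 lists. Of 27 further resident macrophage and myeloid genes, all tested, 3 were called lower in P635L Ctr than in WT Ctr and 0 higher, with a median log2 fold change of -0.69, and 6 were called higher in P635L Tnpo3 than in P635L Ctr and 0 lower, with a median of 0.62. Over all genes 7.14% were called lower in the first comparison and 1.63% higher in the second. The first count was, without WT Ctr replicate 1, 1 lower with a median of -0.11, beside 6.55% of all genes, and the second 12 higher with a median of 0.62, beside 1.94%. The lists were drawn up with results of these libraries known.

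Timd4, a receptor for dying cells that marks long-lived resident macrophages, was the clearest. It was at 3.29, 3.59, 2.74 and 2.43 CPM in WT Ctr and 1.04, 1.07, 0.821 and 0.697 CPM in P635L Ctr. In P635L Tnpo3 it was at 1.73, 2.65, 2.69 and 1.64 CPM and in WT Tnpo3 at 3.31, 3.86, 2.77 and 2.97 CPM. The 4 P635L Ctr hearts lay below all others, and WT Ctr replicate 1 did not stand out. How many of all genes have P635L Ctr below all other hearts was not computed. Timd4 fell by 1.72 (SE 0.24, edgeR adjusted p = 7.08e-05) between WT Ctr and P635L Ctr, or by 1.67 without WT Ctr replicate 1 (adjusted p = 0.000231). It rose by 1.26 (SE 0.23, adjusted p = 0.00537) between P635L Ctr and P635L Tnpo3.

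Cbr2, a carbonyl reductase, fell by 0.66 (edgeR adjusted p = 0.0452) with the mutation and rose by 0.94 (adjusted p = 0.0198) with the virus. F13a1, the A chain of coagulation factor XIII, fell by 0.52 (adjusted p = 0.0375) and rose by 0.87 (adjusted p = 0.00548). Without WT Ctr replicate 1 the falls of Cbr2 (-0.58, adjusted p = 0.105) and F13a1 (-0.45, adjusted p = 0.0951) were not called. Maf (0.79), Pf4 (0.74) and Stab1 (0.52) were the other 3 called higher in P635L Tnpo3 than in P635L Ctr, named here after their values were seen. Folr2, a folate receptor found with LYVE1 on resident macrophages, was not called: its log2 fold change was -0.54 (adjusted p = 0.292, or -0.34 without WT Ctr replicate 1) with the mutation and 0.55 (adjusted p = 0.378) with the virus.

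Of 18 genes of the complement cascade and its regulators, 17 were tested, and in P635L Ctr against WT Ctr 2 were called higher and 2 lower, beside 14.2% of all genes called in either direction. Masp1, a protease of the lectin pathway, rose by 1.65 (SE 0.17, edgeR adjusted p = 2.86e-06), from 12.4 ± 3.82 to 39.0 ± 4.73 CPM (SD, n = 4), and was at 1.64 without WT Ctr replicate 1. C3, the central component, fell by 1.27 (adjusted p = 0.0425), and Cfp, properdin, fell by 0.68 (adjusted p = 0.0198). Without WT Ctr replicate 1 the values of C3 (-0.60, adjusted p = 0.126) and Cfp (-0.43, adjusted p = 0.0805) were not called, while 4 genes were called higher and 0 lower, beside 13.1% of all genes. Those gained were C1ra, a protease that binds C1q, at 0.69 (adjusted p = 0.0250, against 0.45 with it) and Serping1, the C1 inhibitor, at 0.65 (adjusted p = 0.0130, against 0.38), named here after their values were seen. In P635L Tnpo3 against P635L Ctr, Masp1 fell by 1.19 (adjusted p = 0.000484) and Cfp rose by 0.91 (adjusted p = 0.0104). The fibroblast marker sums given above moved in the same directions as Masp1, and their part was not tested.

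Of the ligands of CSF1R, Csf1 and Il34 were tested and neither was called in any comparison; Csf1 lay between 56.5 and 95.2 CPM in the 16 hearts. In P635L Ctr against WT Ctr, the comparison of the next 3 lists, 7.14% of all genes were called lower and 14.2% in either direction. Of 13 genes of monocyte recruitment, 12 were tested, and 3 chemokines were called lower: Ccl4 (-3.59), Ccl7 (-1.87) and Ccl2 (-1.48). Without WT Ctr replicate 1 none of the 3 was called, with values of -0.75, -0.89 and -0.62. Ccl4 lay at 0.164 to 0.289 CPM in the other WT Ctr hearts and 0.0456 to 0.243 CPM in P635L Ctr. Vcan (1.11) and Cx3cl1 (0.92) were called higher in both fits. Among 9 damage-associated macrophage genes, 1 was called lower, Lpl, a lipase that heart muscle also makes, which fell by 0.60 (edgeR adjusted p = 0.00147, or by 0.55 without WT Ctr replicate 1, adjusted p = 0.00621) and rose by 0.60 (adjusted p = 0.00673) with the virus. Without WT Ctr replicate 1, 3 others of that list were called higher in P635L Ctr, named here after their values were seen: Spp1 (2.26, against 0.14 with it), Lgals3 (1.60, against -0.18) and Cd9 (0.51, against 0.36). That fit called 13.1% of all genes in either direction. Spp1 lay at 0.11 to 0.493 CPM in the other WT Ctr hearts. Of 10 inflammatory genes 8 were tested: Ptgs2, which makes prostaglandins, rose by 1.63 (adjusted p = 0.0290, or 0.0521 without WT Ctr replicate 1) and Arg1, at under 1 CPM in every heart, fell by 2.30 (adjusted p = 0.0125, or by 2.04 without WT Ctr replicate 1, adjusted p = 0.0411). Mertk, a resident macrophage receptor for the uptake of dying cells, already had a higher mean in untreated mutant hearts, though it was not called there. P635L Ctr averaged 13.7 ± 1.08 CPM, and WT Ctr 10.2 ± 2.07 CPM (SD, n = 4). Of the 27 genes of its list, 26 were negative between these groups and 1 was positive (16 and 11 without WT Ctr replicate 1). In treated mutant hearts, Mertk was higher than in WT Ctr by 0.83 (adjusted p = 0.00254). Without WT Ctr replicate 1 that value was 0.80 (adjusted p = 0.00859). It was higher than in WT Tnpo3 by 0.55 (adjusted p = 0.0378). Against WT Tnpo3, Stab1 (0.45), Masp1 (0.76) and Cx3cl1 (0.68) were higher too, and in WT Tnpo3 against WT Ctr and in the interaction 0 genes of the 6 lists were called by edgeR.

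Genes with the most similar pattern across the 16 libraries, by Pearson correlation of log2 levels, differed between members. The mean of the 3 C1q chains was closest to Alox5ap (r = 0.96), C3ar1 (0.94), Lyz2 (0.94), Ccl7 (0.93) and Tmem106a (0.93), and over the 15 libraries without WT Ctr replicate 1 Alox5ap (0.92) still came first. Ccr2 was closest to Mpeg1 (0.97), H2-DMa (0.95), Cybb (0.94), Traf1 (0.94) and Selplg (0.93), and without that library to Mpeg1 at 0.93. Lyve1 was closest to Fndc5 (0.95), Rhot2 (0.93), Ttc7 (0.93), Pgpep1 (0.92) and Fbxo31 (0.92), of which Fndc5, the irisin precursor of striated muscle, lay between 311 and 810 CPM. No gene was shared between these 3 sets. The libraries share groups and depth, so these are descriptions.

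Splicing of the 10 genes, read from the authors' deposited rMATS tables, gave 0 called events in each comparison with WT Ctr, of 11 events for P635L Ctr, 11 for P635L Tnpo3 and 13 for WT Tnpo3. Over all events, 1.97%, 1.65% and 0.731% were called, at an FDR under 0.05 and an inclusion difference of at least 0.1. The 3 events of the 10 genes with the lowest FDR in P635L Ctr, picked after their values were seen, are given from the authors' deposited table. A Cd68 exon (chr11:69556329-69556762) had a mean inclusion of 0.895 in WT Ctr and 0.952 in P635L Ctr (FDR = 0.0545), and of 0.899 in P635L Tnpo3 (FDR = 1.0). A longer form of it (chr11:69556302-69556762) was at 0.785 and 0.885 (FDR = 0.148), and at 0.796 in P635L Tnpo3 (FDR = 1.0). A retained-intron event of Cd163 (chr6:124304857-124306056) was at 0.856 in WT Ctr and 0.642 in P635L Ctr (FDR = 0.0978), from means of 13 and 19 junction reads, and at 0.835 in P635L Tnpo3 (FDR = 0.331). Another retained-intron entry of Cd163 has the same coordinates and more reads, with means of 21.5 and 32. It was at 0.442 in WT Ctr and 0.299 in P635L Ctr (rMATS FDR = 0.448).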

How the data were processed

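RNA of left ventricles was sequenced from 16 mice, 1 library each. Gene counts in the deposited table are unnormalised, from STAR 2.7.9a and featureCounts 2.0.6 on GRCm39 per the submitters' processing notes. Whether the labels' replicates are separate litters is not given, so p-values measure the spread between these mice. The authors' deposited DESeq2 tables give log2 fold changes with a p-value and an adjusted p-value per gene, per the file headers. Those deposited tables also hold a mean normalised signal and a test score per gene, from the authors' DESeq2 run, which were not used. Inclusion levels and FDR of splicing events come from the authors' rMATS tables, per the file headers.

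Counts were tested with edgeR 4.0.16 in R 4.3.3 (quasi-likelihood F test, robust, TMM factors, filterByExpr, 1 mean per group over 16 libraries, 12 residual degrees of freedom). Two-sided p-values were adjusted by Benjamini-Hochberg across the 18662 genes tested, and a gene was called at an adjusted p under 0.05. Genes counted at an unadjusted p under 0.05 are not calls, and the share of all genes at that level is not given. CPM uses TMM factors. The test was tried on simulated data. No 2 libraries of a group had counts that agree within sampling noise. Correlations of patterns use log2(CPM + 0.5). Alternatives were DESeq2 1.42.0, other scalings and filters, the groups compared alone, a sex covariate, a replicate block, and leaving out libraries. That without the libraries with Xist above Y-linked counts was chosen after seeing the data. Same-numbered mice are not stated to be related.

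The 10 genes and the 6 lists were chosen with earlier results of these data known. Named were all 10 genes, and from each list up to 3 called genes with the largest fold change, or 2 with the highest level where none was called, and the 5 genes closest in pattern to C1q, Lyve1 and Ccr2. Symbols are those of the authors' splicing tables and a supplied name table. Other genes that are named were picked after their values were seen. The values of 1 further complement gene are not reported here.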

Additional observations from a re-analysis of the deposited data

Results flagged for a closer look

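In 3 of the 40 sets of 4 hearts examined (10 genes in 4 groups), 1 heart lay farther from its neighbours than Dixon's criterion allows, and each time it was WT Ctr replicate 1. Chance gives about 1 such set in 20. The values were 31.7 CPM for Adgre1, against 6.19 to 7.71 CPM in the other WT Ctr hearts, 83.9 CPM for Csf1r, against 41.4 to 45.5 CPM, and 21.8 CPM for Ccr2, against 1.28 to 3.22 CPM. The same library had 94.1 CPM of T cell markers and 2832 CPM of MHC class II genes, and the part of these cells in the 3 values was not tested.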

How the results depend on the processing

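Over the 27 alternative fits (26 for the interaction), 1465 fold changes of the 10 genes kept their direction and their side of the threshold, 37 gained a call, 16 lost one and 92 changed sign. Between P635L Tnpo3 and P635L Ctr 0 changed sign. Between P635L Ctr and WT Ctr 3 did, all without WT Ctr replicate 1, and 60 of the sign changes were in P635L Tnpo3 against WT Ctr, where most values lay near 0. Unless a value shows it, the cause was not tested. Counts under 100 limit Ccr2 in 4 libraries.

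Of the 10 genes, those called in P635L Ctr against WT Ctr numbered 1 with no filter on low counts, 5 with DESeq2 and 1 at a fold change of at least 2. In P635L Tnpo3 against P635L Ctr they numbered 2 without the libraries rich in ENSMUSG00000119584, 6 with the groups compared alone, 2 with DESeq2 and 1 without the libraries with Xist above Y-linked counts. Leaving out 1 library gave 1 to 5 in the first comparison, with 4 when WT Ctr replicate 3 was left out and 5 when WT Ctr replicate 4 was. It gave 0 to 5 in the second, the 5 without WT Ctr replicate 1, and 0 to 1 in P635L Tnpo3 against WT Ctr. In the second comparison Lyve1 was called without WT Ctr replicate 2 or WT Tnpo3 replicate 3, and Cd163 without WT Tnpo3 replicate 4.

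Over all genes, P635L Ctr against WT Ctr gave 2653 calls, 1128 at a fold change of at least 2, and 1814 to 3141 on leaving out 1 library. P635L Tnpo3 against P635L Ctr gave 724 calls, with 1482 without the rich libraries, 2846 with the groups alone, 1369 with DESeq2, 1282 without the Xist libraries, 253 at a fold change of at least 2 and 282 to 1022 on leaving out 1 library. P635L Tnpo3 against WT Ctr gave 573 calls, with 319 without the rich libraries, 1100 with DESeq2, 307 at a fold change of at least 2 and 282 to 736 on leaving out 1 library. The split of those 573 was 278 higher and 295 lower, and 350 and 246 with upper-quartile factors. P635L Tnpo3 against WT Tnpo3 gave 694 calls, with 376 with the sex covariate, 1887 without the rich libraries, 462 with the groups alone, 1425 with DESeq2, 386 without the Xist libraries, 299 at a fold change of at least 2 and 280 to 1220 on leaving out 1 library. The interaction gave 94 calls, with 146 with no filter, 322 without the rich libraries, 410 with DESeq2, 54 without the Xist libraries and 52 to 221 on leaving out 1 library. WT Tnpo3 against WT Ctr gave 1 call, with 0 without the rich libraries and 0 without the Xist libraries, 3 with DESeq2 and 1 to 3 on leaving out 1 library.

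With the replicate number as a block, the 10 genes had 2 calls in P635L Ctr against WT Ctr (Lyve1 and Cd163 in place of Cd68), and in the other comparisons 0. All genes had 2487, 677, 490, 547 and 1 calls in P635L Ctr against WT Ctr, P635L Tnpo3 against P635L Ctr, against WT Ctr and against WT Tnpo3, and in WT Tnpo3 against WT Ctr, and 113 in the interaction. Same-numbered samples did not deviate together in every pair of any 2 groups: the correlation was above 0.1 in 3 of 4 pairs of WT Ctr with WT Tnpo3 (0.0809 to 0.602) and in 0 to 2 of 4 pairs of the other groups, so the numbers were not taken as pairing.

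Signs of P635L Tnpo3 against WT Ctr changed as follows. Cd163 became 0.01 with RLE factors and with DESeq2, 0.04 with upper-quartile factors and without the rich libraries, 0.03 with no filter, 0.02 with the filter of 1 CPM in 4 libraries and with the groups alone, and 0.05 with the sex covariate and without the Xist libraries. C1qb became 0 with RLE factors and DESeq2, 0.04 with upper-quartile factors, 0.03 with no filter, 0.02 with the 1 CPM filter and with the groups alone, and 0.13 with the replicate block. Cd68 became 0.02 with upper-quartile factors, 0.01 with no filter, 0.03 with the replicate block and 0 with the groups alone. C1qc became 0 with upper-quartile factors and 0.03 with the replicate block. Adgre1 became -0.13 with the sex covariate, -0.46 without the rich libraries and -0.15 without the Xist libraries. Csf1r became -0.08 and Lyve1 0.13 without the rich libraries. In WT Tnpo3 against WT Ctr, Cd68 became 0.05 with the sex covariate, Cd163 -0.05 and Mrc1 -0.03 without the rich libraries, and Lyve1 0 without the Xist libraries. In P635L Tnpo3 against WT Tnpo3, Ccr2 became 0.02 with the replicate block and 0 without the rich libraries, Adgre1 -0.05, Cd68 -0.17 and C1qc 0 with the sex covariate, Cd163 0.09 without the rich libraries, and Cd68 -0.05 and Cd163 0.02 without the Xist libraries.

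On leaving out 1 library, the values that changed sign ranged as follows. In P635L Ctr against WT Ctr, Adgre1 from -0.76 to 0.37, Ccr2 from -1.48 to 0.48 and Mrc1 from -0.22 to 0.05. In P635L Tnpo3 against WT Ctr, Adgre1 from -0.23 to 0.90, C1qa from -0.33 to 0.39, C1qb from -0.23 to 0.59, C1qc from -0.24 to 0.42, Ccr2 from -1.13 to 0.84, Cd163 from -0.21 to 0.10, Cd68 from -0.22 to 0.44, Csf1r from -0.02 to 0.43 and Lyve1 from -0.37 to 0.02. In WT Tnpo3 against WT Ctr, Adgre1 from -0.53 to 0.61, C1qa from -0.58 to 0.14, C1qb from -0.52 to 0.30, C1qc from -0.46 to 0.19, Ccr2 from -1.04 to 0.92, Cd163 from -0.09 to 0.29, Cd68 from -0.27 to 0.38, Csf1r from -0.23 to 0.17 and Mrc1 from -0.01 to 0.27. In the interaction, Adgre1 from -0.08 to 1.05 and Ccr2 from -0.57 to 1.40. In P635L Tnpo3 against WT Tnpo3, Ccr2 from -0.32 to 0.10, Cd163 from -0.36 to 0.08 and Cd68 from -0.12 to 0.20.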
